A study of Mus musculus with 6 samples.

Results

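RNA levels of 10 genes that respond to the transcription factor NF-kB or carry inflammatory signals were described in endothelial cells sorted from mammary glands in which Ets2, an ETS family transcription factor, had or had not been deleted in fibroblasts. The genes were Il6, Lif, Il1b, Ptgs2, Nfkbia, Tnfaip3, Birc3, Socs3, Relb and Nfkb2. They were measured by 21 of the 45037 probe sets tested and were 10 of 18193 genes represented by a probe set annotated to a single gene. Where a gene had several such probe sets, the one with the highest mean over the 6 arrays represented it and the others are given beside it. The genes were chosen by their differences between the groups on these same arrays, seen beforehand, so those differences are a description and carry no test.

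All 6 samples came from 9-week-old mice of the FVB/N strain. Each mouse carried PyMT, a viral oncogene whose expression in mammary epithelium gives rise to tumors. All 6 also had the genotype Ets2db/loxP, in which db is a conventional knockout allele of the DNA-binding domain and loxP a conditional allele. The 3 control mice (PyMT;Ets2db/loxP) therefore kept a single functional Ets2 allele, and the 3 deleted mice (PyMT;Fsp-Cre;Ets2db/loxP) carried in addition Cre driven by the promoter of Fsp1 (S100a4), which is used to target stromal fibroblasts. One label field of the control samples named no oncogene, while their titles, descriptions and genotypes named PyMT, and the genotype was used. Cells were freed by collagenase, sorted with an antibody to CD31, an adhesion molecule of endothelium, and placed in Trizol. Their amplified RNA was hybridized to Affymetrix mouse arrays, 1 array a sample.

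NF-kB is a family of dimeric transcription factors held in the cytoplasm by IkB proteins. Cytokines such as interleukin 1 and tumor necrosis factor activate IkB kinase, the IkB proteins are degraded, and the dimers enter the nucleus and induce cytokines, enzymes such as cyclooxygenase 2, and their own inhibitors. In endothelium this response recruits leukocytes, and interleukin 6 and LIF, which signal through the shared receptor gp130 and STAT3, carry it to neighbouring cells. A slower, noncanonical branch acts through RelB and p100, the product of Nfkb2.

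The arrays had like medians, between 7.02 and 7.07 on the log2 scale of the deposited signal. All 14 endothelial markers lay above the median signal of 7.03, and so did all 12 markers of epithelium, which was not the sorted population. The mean signal of the epithelial markers was between 12.03 and 12.22 on the control arrays and between 11.83 and 12.21 on the deleted arrays. That of the endothelial markers was much the same, between 11.98 and 12.26 on the control arrays and between 12.11 and 12.44 on the deleted arrays. Control replicate 3 stood apart in RNA quality, with the highest log2 difference of the 3′ over the 5′ control probe sets of Gapdh, 1.31 against 0.75 to 1.01 on the other 5 arrays. Ets2 read 14.48, 14.41 and 14.26 on the control arrays and 14.43, 14.30 and 14.50 on the deleted arrays, a difference of 0.025 ± 0.14 (SE), and since the deletion was aimed at fibroblasts this does not check it. Every SE given here is the moderated one from limma, which draws on the spread of all probe sets. It can therefore differ from what the SDs of a gene's own arrays would give. In bulk samples of this kind, fewer cells of a type and less RNA per cell cannot be told apart.

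Of the 10 genes, 9 had a higher mean on the deleted arrays, where 50.9% of all 18193 genes did. Their median difference, deleted minus control, was 0.20 on the log2 scale, against 0.0042 for all genes. Il6 had the highest difference of the 10, 0.68, followed by Ptgs2 at 0.47, Tnfaip3 at 0.43 and Relb at 0.40, and Nfkb2 was the lone gene with a lower mean, at -0.23. These top 4 lay above 0.31, the 95th percentile of all genes. Among the representative probe sets, in Il6 alone did all 3 deleted arrays read above all 3 control arrays, which was so in 3.36% of all genes. A dimmer probe set of Lif and one of Nfkb2 also separated in this way. In none of the 10 did all deleted arrays read below all control arrays (2.7% of all genes), and no gene of the 10 differed by more than 1 on the log2 scale.

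**Figure D1:**
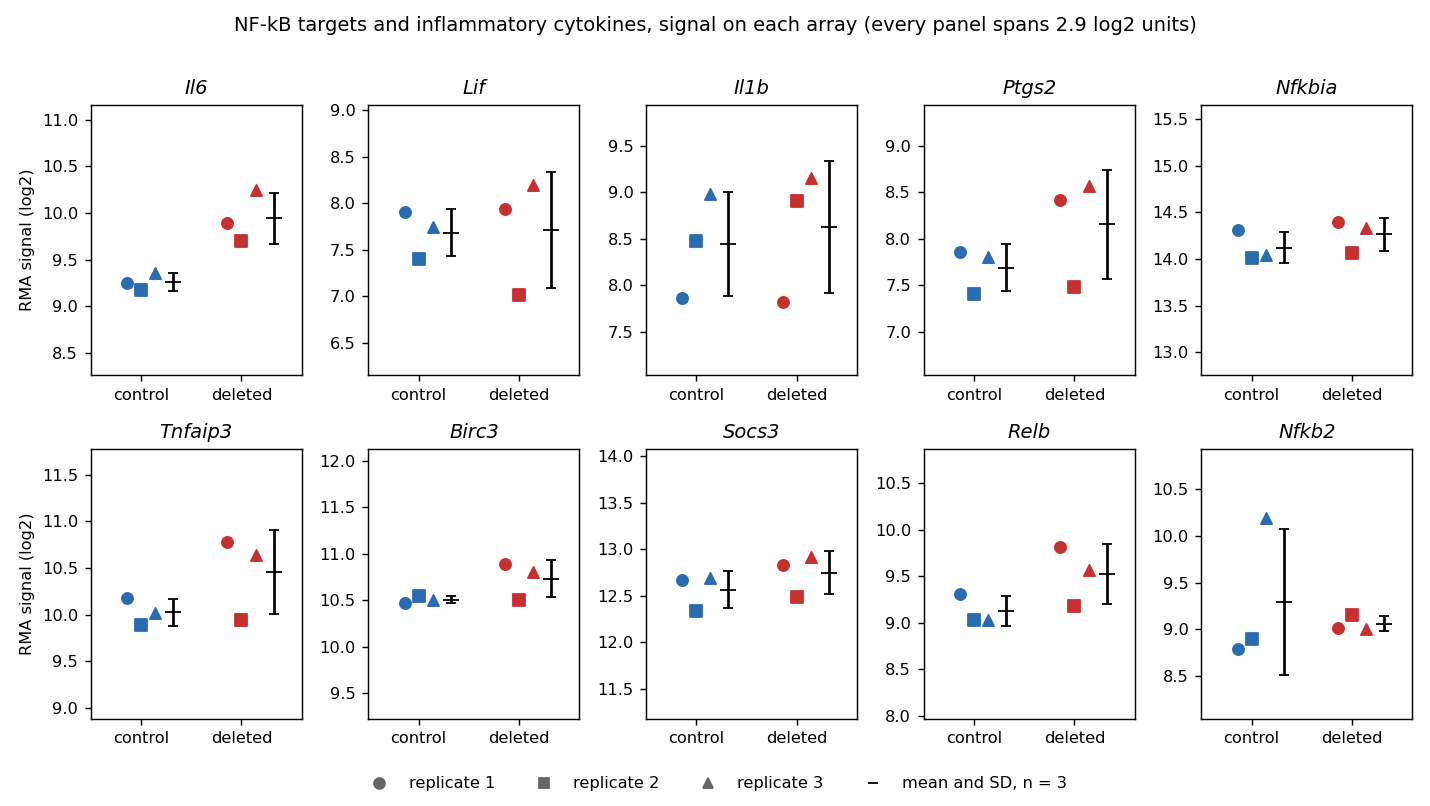
Signal of the representative probe set of each of the 10 genes on each array, in log2 units of the RMA signal, with control arrays in blue, deleted arrays in red, a marker shape for each replicate number, and a black bar at each group mean spanning 1 SD on either side (n = 3). The Il6 groups are apart, at 9.17 to 9.36 and 9.70 to 10.24, deleted replicate 2 sits among or near the control arrays in most other panels, and control replicate 3 stands alone in the Nfkb2 panel.

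Among the secreted ligands, Il6 encodes interleukin 6, which acts through the interleukin 6 receptor and gp130. Its gene lies at chr5:30013114-30019975 (GRCm38.p6), and its single probe set read 9.25, 9.17 and 9.36 on the control arrays and 9.89, 9.70 and 10.24 on the deleted arrays. Every deleted array was thus higher than every control array, and deleted replicate 3 was the highest. The means were 9.26 ± 0.094 (SD, n = 3) and 9.94 ± 0.27, a difference of 0.68 ± 0.17 (SE) or 1.61-fold in signal, larger than the SD of either group. With 1 array left out at a time the difference lay between 0.54 and 0.80, and with groups that do not overlap it could not change sign.

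Lif encodes leukemia inhibitory factor, another ligand of gp130. Its representative probe set read 7.90, 7.40 and 7.74 on the control arrays and 7.93, 7.01 and 8.19 on the deleted arrays. The deleted arrays included both the highest and the lowest value, so the groups overlapped throughout. The means of 7.68 ± 0.26 and 7.71 ± 0.62 (SD, n = 3) differed by 0.030 ± 0.32 (SE). A dimmer probe set of Lif, below the median signal of the arrays, read 4.70, 4.72 and 4.69 on the control and 4.88, 4.93 and 4.93 on the deleted arrays, a narrow separation of 0.21. Both probe sets were thus higher on average on the deleted arrays, but the representative one turned to -0.21 without deleted replicate 3, -0.11 without control replicate 2 and -0.08 without deleted replicate 1.

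Il1b (chr2:129364569-129371164) encodes interleukin 1 beta, which both activates NF-kB and is induced by it, mostly in myeloid cells. Its single probe set read 7.87, 8.48 and 8.98 on the control arrays and 7.82, 8.91 and 9.15 on the deleted arrays. In both groups 1 array was low and the others were higher, and the ranges nearly coincided. The difference of 0.18 ± 0.41 (SE) was smaller than the SD of 0.56 in the control and 0.71 in the deleted group, and it ran from -0.10 without control replicate 1, through -0.08 when deleted replicate 3 was left out, to 0.59 without deleted replicate 1.

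The 250 bases upstream of each of the 12 RefSeq starts held for these genes were searched on both strands for the NF-kB consensus of 10 bases, for the STAT site TTCNNNGAA, the AP-1 site TGANTCA and the C/EBP site TTGCNNAA. Promoters were held for 9 of the 10 genes, Relb being the exception. The NF-kB consensus was present in 5 of these 9, Il6, Lif, Nfkbia, Tnfaip3 and Nfkb2, and in 8.23% of 27025 genes or 7.25% of 32851 promoters. The STAT site was in 7.02% of promoters, the AP-1 site in 6.75% and the C/EBP site in 9.56%. Among the 10 genes no match of 1 motif overlapped a match of another. A match is a run of letters and not a measured binding site, and the share was not tested. The promoters of the 2 ligands with a match are shown 5′ to 3′ on the strand of the gene, with the NF-kB match in capitals, for Il6 at chr5:30012864-30013113 (plus strand, match 44 to 35 bases upstream of the start) and for Lif at chr11:4257318-4257567 (plus strand, match 178 to 169 bases upstream).
Il6: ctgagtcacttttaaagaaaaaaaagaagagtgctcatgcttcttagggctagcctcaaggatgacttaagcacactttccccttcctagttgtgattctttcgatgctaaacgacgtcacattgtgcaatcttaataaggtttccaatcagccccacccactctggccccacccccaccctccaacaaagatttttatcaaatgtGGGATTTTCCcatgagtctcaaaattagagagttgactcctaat
Lif: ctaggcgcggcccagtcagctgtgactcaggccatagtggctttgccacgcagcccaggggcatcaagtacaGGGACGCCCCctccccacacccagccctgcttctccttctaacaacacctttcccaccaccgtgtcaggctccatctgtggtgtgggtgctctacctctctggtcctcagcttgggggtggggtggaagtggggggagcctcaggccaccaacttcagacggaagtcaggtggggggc

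The Il6 window held in addition an AP-1 match 249 to 243 bases upstream and a C/EBP match 128 to 121 bases upstream. Lif held an AP-1 match 228 to 222 bases upstream.

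Ptgs2 (chr1:150100031-150108234) encodes cyclooxygenase 2, the inducible enzyme of prostaglandin synthesis. Its representative probe set read 7.86, 7.40 and 7.81 on the control arrays and 8.42, 7.48 and 8.56 on the deleted arrays. Deleted replicates 1 and 3 were above every control array, and deleted replicate 2 lay within the control range. The means of 7.69 ± 0.25 and 8.15 ± 0.59 (SD, n = 3) differed by 0.47 ± 0.30 (SE), and the difference was 0.80 without deleted replicate 2 and 0.26 without deleted replicate 3. The other Ptgs2 probe set was near the bottom of the signal range, at 4.81, 3.63 and 3.31 on the control and 3.55, 3.43 and 3.83 on the deleted arrays, and it differed the other way, by -0.31 ± 0.37. With both probe sets averaged the difference of Ptgs2 was 0.076. Its promoter window held a C/EBP match 69 to 62 bases upstream and no match to the NF-kB consensus.

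The inhibitors of the pathway are themselves induced by it. Nfkbia encodes IkB alpha, which binds NF-kB dimers in the cytoplasm and returns them there. Tnfaip3 encodes A20, a ubiquitin-editing enzyme that ends signalling from the tumor necrosis factor and Toll-like receptors. Birc3 (chr9:7847468-7873205) encodes cIAP2, a ubiquitin ligase at those receptors, and Socs3 encodes a STAT3-induced protein that blocks signalling by gp130 and its kinases. Their brightest probe sets were all higher on average on the deleted arrays, by 0.15 to 0.43, and in each of them deleted replicate 2 was the lowest deleted array.

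The representative probe set of Nfkbia read 14.31, 14.01 and 14.04 on the control arrays and 14.39, 14.07 and 14.34 on the deleted arrays. Control replicate 1 was nearly as high as deleted replicates 1 and 3, and the groups overlapped. The difference was 0.15 ± 0.16 (SE). It was 0.082 without deleted replicate 1, 0.091 without control replicate 2, 0.24 without control replicate 1 and 0.25 without deleted replicate 2. Of the 4 other Nfkbia probe sets, 3 lay close to it at 0.16, 0.15 and 0.018. The remaining one differed by 0.65 ± 0.38, with 12.37, 11.73 and 10.84 on the control and 12.48, 11.91 and 12.51 on the deleted arrays, where control replicate 3 was the lowest array.

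Tnfaip3 read 10.17, 9.88 and 10.01 on the control arrays and 10.78, 9.94 and 10.64 on the deleted arrays. Deleted replicates 1 and 3 were above all control arrays and deleted replicate 2 was in their midst. The means of 10.02 ± 0.15 and 10.45 ± 0.45 (SD, n = 3) differed by 0.43 ± 0.24 (SE), by 0.69 without deleted replicate 2 and by 0.27 without deleted replicate 1. With both probe sets averaged it was 0.25. A second, dim probe set of Tnfaip3 differed by 0.066 ± 0.23.

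Birc3 read 10.47, 10.54 and 10.50 on the control arrays, the tightest control group of the 10 genes, and 10.89, 10.51 and 10.80 on the deleted arrays. Deleted replicate 2 again lay among the control arrays while the other 2 were above them. The difference was 0.23 ± 0.15 (SE), and 0.10 ± 0.25 on its other probe set. It was 0.15 without deleted replicate 1 and 0.34 without deleted replicate 2.

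Socs3 read 12.67, 12.34 and 12.69 on the control arrays and 12.83, 12.48 and 12.92 on the deleted arrays. Replicate 2 was the lowest of its group on both sides, and the groups overlapped through it. The difference was 0.18 ± 0.18 (SE), and its other probe sets gave 0.22 ± 0.17 and 0.47 ± 0.26. It was 0.31 without deleted replicate 2, 0.093 when deleted replicate 3 was left out and 0.067 when control replicate 2 was.

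The promoters of Nfkbia, Tnfaip3 and Socs3 are shown because their products close the feedback loops of NF-kB and STAT3. Capitals mark the NF-kB consensus in Nfkbia at chr12:55492648-55492897 (minus strand, match 29 to 20 bases upstream) and in Tnfaip3 at chr10:19015411-19015660 (minus strand, matches 125 to 116 and 12 to 3 bases upstream). In Socs3 at chr11:117969367-117969616 (minus strand) they mark the STAT site, 154 to 146 bases upstream.
Nfkbia: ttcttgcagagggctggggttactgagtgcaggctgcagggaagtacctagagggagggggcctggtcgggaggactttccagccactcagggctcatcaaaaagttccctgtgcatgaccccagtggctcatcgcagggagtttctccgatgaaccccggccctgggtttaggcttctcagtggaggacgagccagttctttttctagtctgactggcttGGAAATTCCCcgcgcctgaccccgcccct
Tnfaip3: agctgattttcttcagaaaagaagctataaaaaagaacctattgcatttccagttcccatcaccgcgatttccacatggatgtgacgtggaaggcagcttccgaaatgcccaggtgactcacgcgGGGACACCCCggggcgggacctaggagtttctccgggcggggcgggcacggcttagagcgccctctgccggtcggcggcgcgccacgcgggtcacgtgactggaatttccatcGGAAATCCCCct
Socs3: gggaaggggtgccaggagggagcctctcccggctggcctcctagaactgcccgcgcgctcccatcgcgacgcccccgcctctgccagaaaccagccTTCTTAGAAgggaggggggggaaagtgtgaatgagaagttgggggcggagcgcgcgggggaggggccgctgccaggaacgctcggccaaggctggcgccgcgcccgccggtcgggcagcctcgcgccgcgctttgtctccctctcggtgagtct

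An AP-1 match lay 136 to 130 bases upstream in this Tnfaip3 window, and the window at the other Tnfaip3 start, chr10:19011964-19012213, held none of the 4 motifs. The Socs3 window lies at a start inside the span of the gene. The Socs3 window held no match to the NF-kB consensus, and the windows of Birc3 and Il1b held none of the 4 motifs.

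The last 2 genes encode NF-kB subunits. Relb (chr7:19606217-19629438) encodes RelB, the partner of p52 in the noncanonical dimer. Its single probe set read 9.31, 9.04 and 9.03 on the control arrays and 9.82, 9.18 and 9.57 on the deleted arrays. The pattern was that of Tnfaip3, with deleted replicates 1 and 3 above every control array and deleted replicate 2 within the control range. The means of 9.12 ± 0.16 and 9.52 ± 0.32 (SD, n = 3) differed by 0.40 ± 0.20 (SE), with 0.25 without deleted replicate 1 to 0.57 without deleted replicate 2.

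Nfkb2 encodes p100, which restrains RelB until it is processed to p52. Its representative probe set read 8.78, 8.89 and 10.19 on the control arrays and 9.01, 9.15 and 9.00 on the deleted arrays. Control replicate 3 was more than 1 log2 unit above the other 5 arrays, which lay close together with the deleted arrays on the upper side. The difference was -0.23 ± 0.36 (SE) over all 6 arrays and 0.22 without control replicate 3. The other Nfkb2 probe set read 8.22, 8.22 and 8.11 on the control and 8.34, 8.36 and 8.39 on the deleted arrays, so that there all deleted arrays were higher, by 0.18 ± 0.13, and control replicate 3 was the lowest. The 2 probe sets of Nfkb2 thus disagreed on control replicate 3, the array with the highest 3′ to 5′ difference in Gapdh, and the part of RNA quality in this was not tested.

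Of the 3 Nfkb2 starts that were held, none of them at the outer end of the gene, the promoter of the first, chr19:46304487-46304736 (plus strand), is shown as that of a subunit gene whose own upstream letters match the consensus. Capitals mark the NF-kB matches, an overlapping pair 39 to 29 bases upstream and another 11 to 2 bases upstream.
Nfkb2: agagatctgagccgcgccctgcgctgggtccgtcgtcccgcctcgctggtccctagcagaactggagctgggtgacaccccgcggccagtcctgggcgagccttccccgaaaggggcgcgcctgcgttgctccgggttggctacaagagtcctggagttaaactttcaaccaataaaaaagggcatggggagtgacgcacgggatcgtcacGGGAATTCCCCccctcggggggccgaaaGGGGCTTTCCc

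The windows at the other 2 starts of Nfkb2 also held the NF-kB consensus, 236 to 227 and 225 to 216 bases upstream, and the former window an AP-1 match 210 to 204 bases upstream. The first window held in addition a STAT site 148 to 140 bases upstream.

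**Figure D2:**
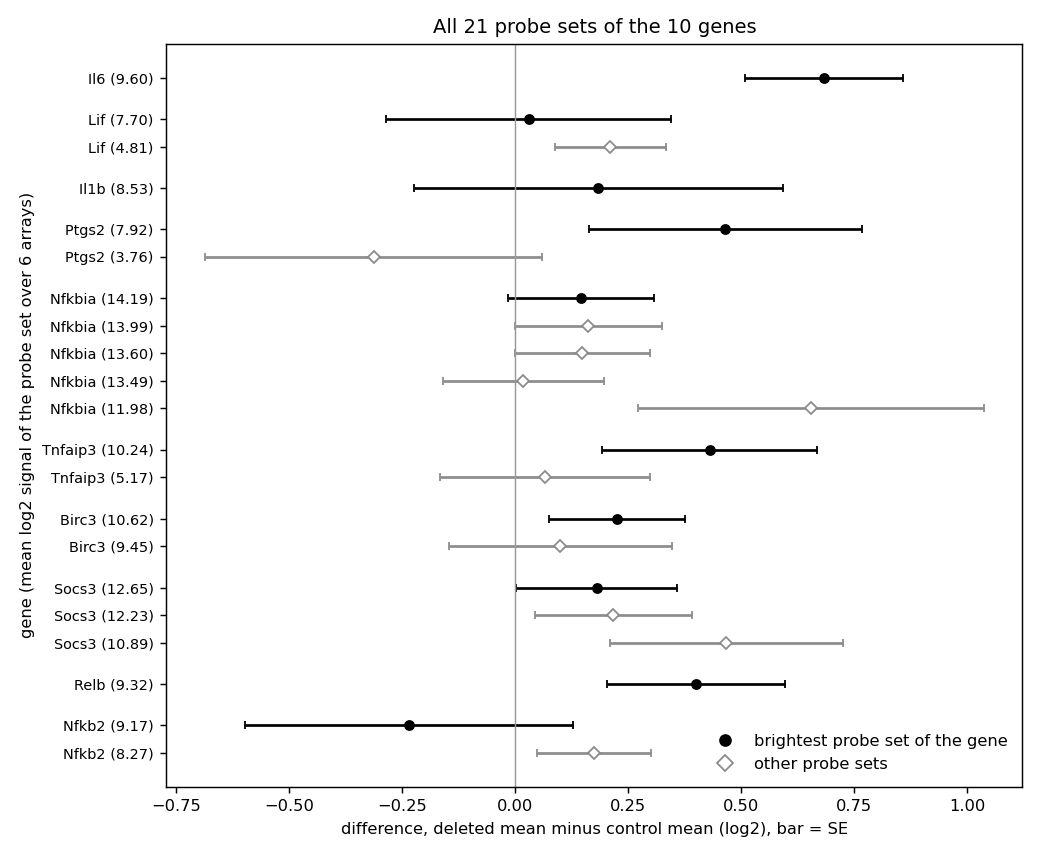
Difference between the group means, deleted minus control in log2 units, for all 21 probe sets of the 10 genes, with bars for the moderated SE from limma, black circles for the brightest probe set of a gene and open diamonds for the others. Of the 21 probe sets 19 lie to the right of 0, and those to the left are the representative probe set of Nfkb2 at -0.23 and the dim one of Ptgs2 at -0.31.

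Over all probe sets of the 10 genes, 19 of 21 were higher on the deleted arrays, where 52.1% of the 34945 single-gene probe sets were. Probe sets of 1 gene read the same RNA and are not independent of each other.

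The deleted arrays did not share the higher values evenly. Of the 10 genes, 8 had at least 2 deleted arrays above all control arrays, which held for 18.8% of all genes, and in 8 of the 10 deleted replicate 2 was the lowest deleted array, as in 36.1% of all genes. The highest array was deleted replicate 3 for 5 of the 10 genes, against 12% of all genes, and deleted replicate 1 for 4, against 23.7%. The lowest was control replicate 2 for 5 of the 10, against 11% of all genes. As the mean deviation of the 10 genes from their own means over the 6 arrays, the control arrays scored -0.14, -0.28 and 0.039 and the deleted arrays 0.18, -0.15 and 0.35. Deleted replicate 2 therefore scored below control replicate 1 and control replicate 3, and the scores of the groups overlapped.

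Without deleted replicate 2 the median difference of the 10 genes was 0.36, and without deleted replicate 3 it was 0.15 with 7 of the 10 higher. Without control replicate 3 all 10 were higher. Replicate 1 of both groups shared a number in the animal identifiers, and so did replicate 2 of both. Between the 2 samples called replicate 1, 9 of the 10 genes were higher in the deleted mouse with a median of 0.32, where 57.3% of all genes were higher. Between those called replicate 2, 8 of the 10 were higher with a median of 0.11, where 54.1% of all genes were.

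**Figure D3:**
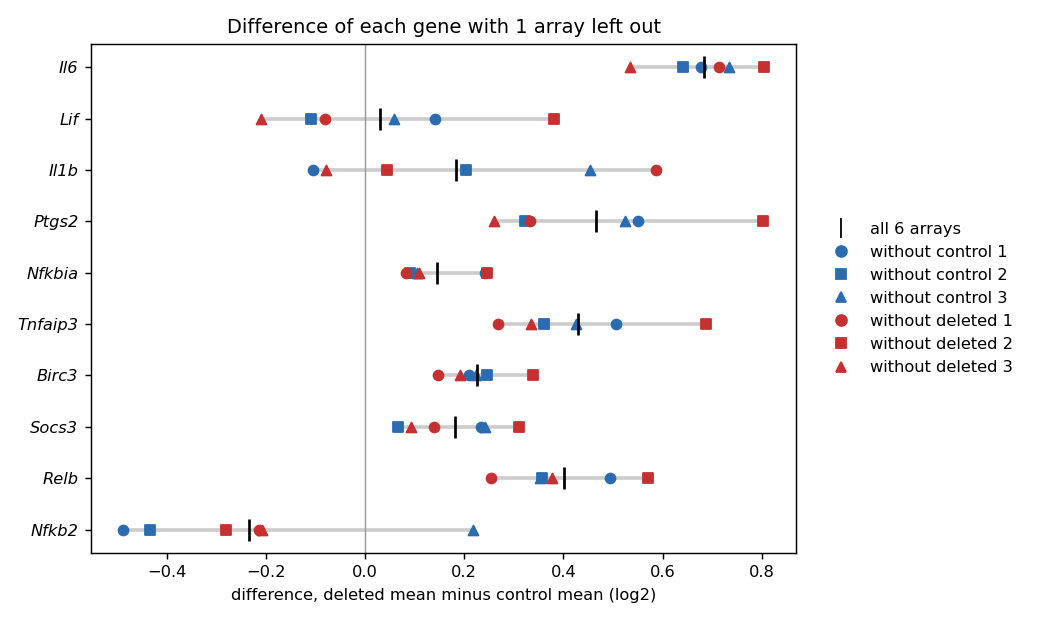
Difference of the representative probe set of each gene, deleted minus control in log2 units, with all 6 arrays (black tick) and with each array left out (blue for a control, red for a deleted array, shape for the replicate number). Il6 runs from 0.54 to 0.80, while Lif, Il1b and Nfkb2 cross 0. Since all deleted arrays of Il6 read above all its control arrays, leaving out 1 array could not change its sign.

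Other gene lists were scored in the same way on the same arrays. The 16 immediate early genes, which are induced within minutes by growth factors and by cell stress, were all higher on average on the deleted arrays, with a median of 0.10. Their highest array was deleted replicate 3 in 15 of 16, and they scored 0.068, -0.028 and -0.25 on the control and -0.0013, -0.19 and 0.40 on the deleted arrays. Fos was 0.032 ± 0.17 (SE) and Fosb 0.17 ± 0.24 higher, and Myc led the list at 0.38 ± 0.29. The array on which Il6, Ptgs2, Socs3, Lif and Il1b were highest was thus also the highest for immediate early genes. The 8 heat shock genes, which include Hspa1a at -0.040 and Hspa1b at -0.026, had a median of 0.055 and were highest on deleted replicate 1 in 5 of 8, led by Bag3 at 0.20.

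Markers of macrophages, cells that make interleukin 1 beta and interleukin 6, read the other way. Of 11 measured, 10 were lower on the deleted arrays, with a median of -0.73 and mean signals of 8.64 to 9.28 on the control and 7.95 to 8.45 on the deleted arrays. Adgre1 was at -0.91 ± 0.41 (SE), Csf1r at -0.87 ± 0.49 and C1qb at -1.29 ± 0.50, and no gene of the list passed an adjusted p of 0.05 in limma, while 6 had an unadjusted p under 0.05 (2.07% of all probe sets). In 6 of the 11 all deleted arrays were below all control arrays (2.7% of all genes). C1qb passed a 2-fold change with an unadjusted p under 0.05 (0.129% of all probe sets). Of 12 pan-leukocyte markers 9 were lower, with a median of -0.41, Ptprc at -0.43, Laptm5 at -0.51 and Cd48 at -0.80. Deleted replicate 3, highest for 5 of the 10 genes, was the lowest array on both lists, with scores of -0.60 and -0.43.

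Neutrophil markers had a median of 0.079 over 9 measured genes, 7 of them below the median signal, with S100a8 at -0.37 and S100a9 at 0.78. Fibroblast markers had a median of -0.45 and were lower in 11 of 12, Pdgfra at -0.59, Col1a1 at -0.38 and Col14a1 at -1.16. None passed an adjusted p of 0.05 in limma and 5 had an unadjusted p under 0.05 (2.07% of all probe sets). Of these Col14a1 had more than a 2-fold change (0.129% of all probe sets passed both limits). In 6 of the 12 fibroblast markers all deleted arrays were below all control arrays (2.7% of all genes). Endothelial markers were higher in 12 of 14, with a median of 0.13, Pecam1 at 0.39 and Cdh5 at 0.11, and scored 0.21 and 0.12 on deleted replicates 1 and 3 and -0.12 on deleted replicate 2. Epithelial markers were lower in 10 of 12, with a median of -0.14, Krt8 at -0.14, Krt18 at -0.19 and Muc1 at -0.67, and deleted replicate 2 had the highest epithelial score of the deleted arrays, 0.15. The part of cell makeup and of the immediate early response in the values of the 10 genes was not tested.

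**Figure D4:**
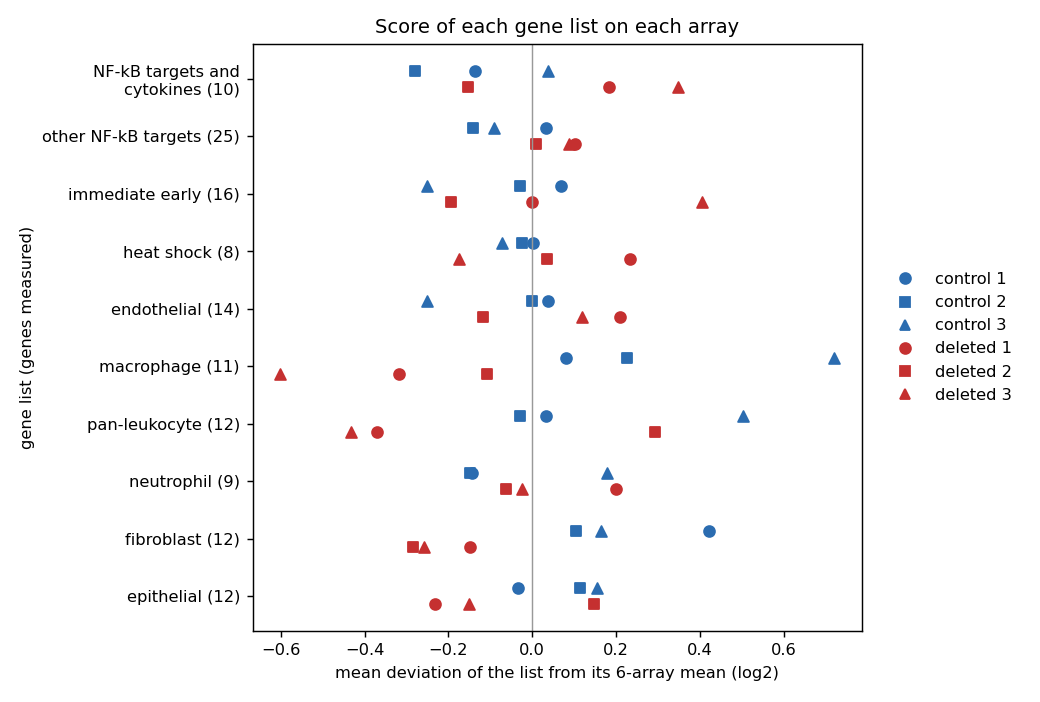
Score of each gene list on each array, the mean deviation of its genes from their 6-array means in log2 units, with the number of genes measured in brackets, control arrays in blue and deleted arrays in red. Deleted replicate 3 is highest for the 10 genes at 0.35 and for immediate early genes at 0.40, and it is lowest for macrophage markers at -0.60.

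A wider list held 130 further genes of NF-kB signalling, of gp130 and STAT3, of prostaglandins and of the interleukin 1 system, of which 120 were measured. Of these 60 were higher and 60 lower on the deleted arrays, with a median of 0.0015. No gene of the list passed an adjusted p of 0.05 in limma, as no probe set on the arrays did (0 of 45037, 0%), and 3 of the 120 had an unadjusted p under 0.05, against 934 of all probe sets or 2.07%. The study's own limits were more than a 2-fold change together with p below 0.05, taken here as unadjusted. Past them lay 58 probe sets on the arrays (0.129%), and none represented a gene of this list. In the same 3 of 120 genes, Rel, Traf5 and Cxcl1, all deleted arrays were above all control arrays, against 3.36% of all genes, and in none were all below, against 2.7%.

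Of the other NF-kB subunits, Rela, which encodes the p65 subunit, differed by 0.019 ± 0.15 (SE). Rel encodes c-Rel, and its mean of 6.62 over the 6 arrays lay below the median signal of 7.03. It read 6.44, 6.31 and 6.33 on the control arrays and 7.04, 6.98 and 6.64 on the deleted arrays. Here deleted replicate 2 lay close to deleted replicate 1 and above deleted replicate 3, unlike in Relb. The difference of Rel was 0.53 ± 0.16 (limma, unadjusted p = 0.0117, adjusted p = 0.9999). Among 13 further inhibitors 8 were higher and 5 lower, with a median of 0.0081. Nfkbid, an atypical IkB protein, was at -0.39 ± 0.47 with control replicate 3 at 8.94 and the other 5 arrays between 7.07 and 7.49, much as in Nfkb2, and Zc3h12a, an RNase that degrades cytokine mRNAs, was at 0.27 ± 0.33.

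Upstream, the kinases and adaptors had 6 of 17 genes higher and a median of -0.028. Traf5, an adaptor of receptors of the tumor necrosis factor family, was at 0.37 ± 0.15 (limma, unadjusted p = 0.0488, adjusted p = 0.9999), and Ikbkg, the regulatory subunit of IkB kinase, at -0.17 ± 0.15. Receptors were higher in 7 of 12, with the interleukin 1 receptor Il1r1 at 0.21 and the lymphotoxin receptor Ltbr at -0.14. Activating ligands were higher in 3 of 9 with a median of -0.11, 8 of them below the median signal, and here Il18 was at -0.70 ± 0.45 and Tnfsf11, the ligand of RANK, at -0.44 ± 0.96.

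The 25 other NF-kB targets, which were not among the 10 genes, had 16 higher and 9 lower with a median of 0.12. Mmp9, a gelatinase, was at 0.73 ± 0.45 and the chemokine Ccl20 at 0.71 ± 0.69. Cxcl1, an attractant of neutrophils that was named after its values had been seen, read 10.46, 10.39 and 10.30 on the control and 10.82, 10.63 and 10.89 on the deleted arrays. All its deleted arrays were above all its control arrays, which was so in 3.36% of all genes. The difference of Cxcl1 was 0.40 ± 0.14 (SE), with an adjusted p of 0.9999 in limma.

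Of the gp130 and STAT3 genes, which relay interleukin 6 and LIF, 12 of 19 were higher with a median of 0.056. The interleukin 6 receptor Il6ra was at -0.40 ± 0.19, opposite to its ligand, and the kinase Jak1 at 0.34 ± 0.23. Prostaglandin genes, which act before, beside or after Ptgs2, were higher in 3 of 15 with a median of -0.13. Hpgd, which inactivates prostaglandins, was at -0.48 ± 0.30 and the receptor Ptger3 at -0.41 ± 0.39. Regulators of interleukin 1 were higher in 3 of 8, with the decoy receptor Il1r2 at -0.66 ± 0.33 and the receptor antagonist Il1rn at -0.35 ± 0.36. None of these named genes passed an adjusted p of 0.05 in limma.

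**Figure D5:**
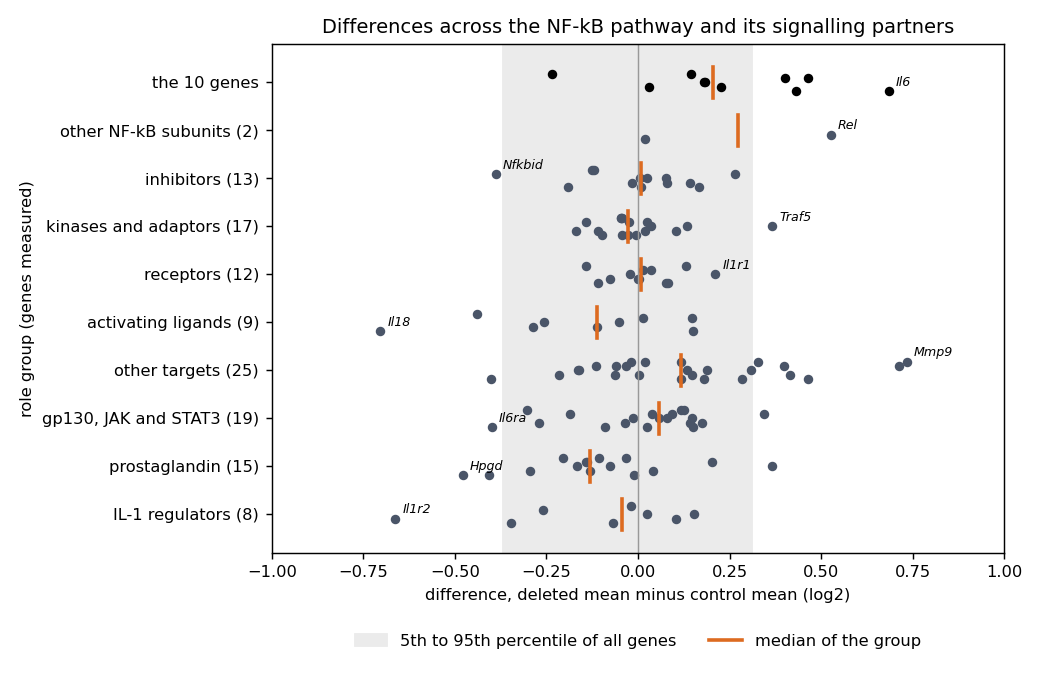
Difference of each gene, deleted minus control in log2 units, for the 10 genes and for 9 role groups of the wider list, with the number of genes measured in brackets, orange bars for group medians and a grey band for the 5th to 95th percentile of all genes, -0.37 to 0.31. The median of the 10 genes is 0.20, that of the other targets 0.12 and that of the prostaglandin genes -0.13.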

How the data were processed

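The authors deposited 1 table of log2 signal, made with the Robust Multichip Average method (RMA), which corrects background, normalizes arrays by quantiles and summarizes each probe set; the version of RMA was not stated in any source used here. Of 45101 probe sets, 64 array controls were left out and 45037 tested, unfiltered. The platform annotation gave 34945 probe sets a single gene, 932 several and 9160 no gene named here. Of the single-gene probe sets 34741 matched a RefSeq gene by number, and coordinates and promoters came from RefSeq (GRCm38.p6).

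Groups followed the genotype labels. The study calls the samples biological replicates. Differences and standard errors came from limma 3.58.1 in R 4.3.3 (lmFit, eBayes, two-sided, no covariate, Benjamini-Hochberg over all tested probe sets), tested on simulated data first. With 3 arrays a group, their number limits the precision. No array pair shared more than 0.218% identical values. The study's methods name WEDGE++ or RMA for finding changed genes, without saying which test gave the p-values of these arrays or whether they were adjusted, so its limit on p was applied to unadjusted values.

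The members and lists were chosen with earlier results of these data known. Lists covered the NF-kB pathway by role, immediate early and heat shock genes, and markers of endothelial, macrophage, neutrophil, pan-leukocyte, fibroblast and epithelial cells. Genes were named by the rule that follows, apart from Cxcl1, which was named after its values had been seen. Named were all 10 genes, Ets2, in each pathway role every gene past the study's thresholds or otherwise the 2 with the largest absolute difference, and in each other list the first 2 genes written and the one with the largest absolute difference. Alternatives were leaving out each array, a fixed or random block for the animal number, averaging the probe sets of a gene, array weights, unmoderated tests, a robust and trended prior, a filter on dim probe sets (median signal), a second quantile normalization and centring on array medians.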

Additional observations from a re-analysis of the deposited data

How the results depend on the processing

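No probe set and no gene of the wider pathway list passed an adjusted p of 0.05 in limma under any alternative run. The 58 probe sets past the study's thresholds became 15 with a filter at the median signal, 23 with unmoderated tests, 152 with array weights and 317 with the replicate number in the identifiers as a fixed block, and 61 to 191 with 1 array left out, namely 191 without deleted replicate 2, 159 when deleted replicate 3 was left out, 153 when it was control replicate 1 and 90 when it was control replicate 2. The filter kept only probe sets above the median signal, so its 15 come from a smaller total than the 58. The fixed block rests on the same-numbered samples alone. What moved the other counts was not tested.

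The median difference of the 10 genes lay between 0.15 and 0.36 with 1 array left out, and 7 to 10 of them were higher. The median of the wider pathway list lay between -0.05 and 0.06. Of 100 recomputed differences of the 10 genes none moved by more than 1 SD of that gene, pooled within the groups. In groups this small, leaving out 1 array cannot move a difference by that much. For the fits with 1 array left out this limit therefore says nothing about stability. Of the 100 differences, 8 changed sign, in Il1b, Lif and Nfkb2. The remaining 7 genes kept theirs, which in Il6 was fixed for the fits with 1 array left out because its groups did not overlap. The 10 genes were chosen by these same differences, so a kept sign is a description.

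The groups shared only 2 animal numbers, those of replicates 1 and 2, and the labels do not say what a number marks. The correlations of deviations between same-numbered samples were 0.17 and -0.017, so the pairing was not used. As a fixed block, a number held by 1 array alone absorbs that array, so replicate 3 of both groups added nothing to the difference. That fit therefore restates the differences between the samples called replicate 1 and between those called replicate 2. In it the median of the 10 genes was 0.22 with 9 higher, Nfkb2 was at 0.24 and Lif at -0.18.

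The 10 genes all lay above the median signal, but other probe sets of Lif, Ptgs2 and Tnfaip3 did not. With 3 arrays a group, the differences of Lif, Il1b, Nfkbia and Nfkb2 were smaller in size than their moderated SE.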
